A study of Mus musculus with 11 samples.

Results

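The matrix metalloproteinase (Mmp), ADAMTS (Adamts) and tissue inhibitor of metalloproteinase (Timp) genes were described in a list of open chromatin regions from bone-forming mouse cells. The genes were chosen by name: a protein-coding gene of the GENCODE vM21 annotation was taken where its symbol is Mmp, Timp or Adamts followed directly by a number. This gave 45 of 21938 protein-coding genes, 22 Mmp, 19 Adamts and 4 Timp genes. Regions that overlapped a gene from 50 kb upstream to its end were assigned to it, which gave 320 of 94963 regions. Mmp1a is annotated as a polymorphic pseudogene in this release and was therefore not among the genes.

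ATAC-seq had been used to measure accessibility: a transposase (Tn5) inserts sequencing adapters where chromatin is open. The 11 cultures were of MPC2, a line from 1 clone of conditionally immortalized mouse mesenchymal cells that can be grown undifferentiated or turned into bone-matrix-forming cells. There were 4 groups: undifferentiated cells (MSC) with vehicle (DMSO, n = 3), MSC with FG-4592 (n = 3), Osteocyte (cells differentiated for 3 weeks) with vehicle (n = 2) and Osteocyte with FG-4592 (n = 3). FG-4592 (Roxadustat) inhibits the prolyl hydroxylases that mark hypoxia-inducible factors (HIF) for degradation, and was given at 50 uM for 48 hours. The list pooled these 11 cultures and held 1 level per region, read as the average log2 CPM (counts scaled to the library total), so that a level per culture, a replicate error, the depth of each culture and a difference between MSC and Osteocyte or between FG-4592 and vehicle cannot be computed from it. The study's own calls of regions that differ between these groups were not used here. A region open in few cultures or few cells and a region weakly open in all of them cannot be told apart in these levels.

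Mmp enzymes are zinc endopeptidases that are made as inactive precursors and cleave collagens and other matrix proteins outside the cell. Adamts enzymes are related secreted proteases with thrombospondin repeats that cut proteoglycans such as aggrecan and versican or trim procollagens. Timp proteins bind and block their active sites. In bone, Mmp13 cleaves fibrillar collagen and Mmp14 is needed for osteocyte processes and for remodelling of the matrix around osteocytes. AP-1 (Fos and Jun proteins) and the bone factor Runx2 are textbook regulators of Mmp13.

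The stretches of DNA just before the transcript starts of the chromosome 9 Mmp cluster are shown first, because the cluster holds 9 of the 22 Mmp genes and only 1 of these 9, Mmp13, had an open region at its start. All 9 genes have a most upstream start that is poor in CpG dinucleotides. Of all protein-coding genes with such a start, 44.7% had a region at one of their starts. Below are the 150 bases before the start of the 5 genes of the cluster that carry the AP-1 letters TGAGTCA on either strand (TGACTCA is the same site read on the other strand). Capitals mark AP-1 matches and matches to the RUNX letters TGTGGT, which read ACCACA on the other strand. Each is written 5′ to 3′ along its gene, from the GRCm38 (mm10) reference.
Mmp13 (chr9:7272364-7272513, plus strand): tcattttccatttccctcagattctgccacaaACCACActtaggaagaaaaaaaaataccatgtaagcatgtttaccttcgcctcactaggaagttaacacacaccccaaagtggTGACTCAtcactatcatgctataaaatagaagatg
Mmp1b (chr9:7388048-7388197, minus strand): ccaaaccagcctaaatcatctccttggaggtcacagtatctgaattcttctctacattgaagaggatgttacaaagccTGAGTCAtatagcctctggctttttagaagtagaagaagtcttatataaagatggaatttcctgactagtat
Mmp3 (chr9:7445672-7445821, plus strand): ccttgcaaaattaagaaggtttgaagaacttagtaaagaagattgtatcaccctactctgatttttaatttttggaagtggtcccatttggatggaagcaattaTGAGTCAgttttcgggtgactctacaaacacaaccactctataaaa
Mmp10 (chr9:7502202-7502351, plus strand): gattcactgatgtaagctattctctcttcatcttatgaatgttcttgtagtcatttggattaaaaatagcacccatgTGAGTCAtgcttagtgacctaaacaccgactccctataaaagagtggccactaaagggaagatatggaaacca
Mmp7 (chr9:7691940-7692089, plus strand): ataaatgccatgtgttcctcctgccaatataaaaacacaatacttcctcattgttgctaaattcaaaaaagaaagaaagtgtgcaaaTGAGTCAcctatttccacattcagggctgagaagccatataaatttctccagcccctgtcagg

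The first base of the AP-1 match lay 35 bases before the start of Mmp13, 46 bases before that of Mmp3, 63 before Mmp7, 72 before Mmp1b and 73 before Mmp10. Of the 45 genes, 6 held the letters in this stretch (13.3%), the sixth being Mmp19 on chromosome 10 with a match 32 bases before its start. Mmp19 was the only one of the 36 genes outside the chromosome 9 cluster with these letters. Over all protein-coding genes 2.39% held them. The RUNX letters were present before Mmp13 (118 bases before the start), Mmp27 (62 bases) and Mmp14 (128 bases), 3 of 45 genes against 7.78% of all protein-coding genes. Mmp13 was the only one of the 45 with both, as were 0.196% of all protein-coding genes (43 genes). With 250 bases Mmp1b also held both, and with 100 bases none of the 45 did. Of the 524 protein-coding genes with AP-1 letters in this stretch 49.6% had an open region at a start, and of the 43 with both 51.2%, against 62.7% of all. Among those with a CpG-poor start the shares were 41.6% and 43.2%, against 44.7% of all genes with a CpG-poor start.

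A region was said to lie at a start where it came within 1000 bp of the start of a protein-coding transcript. In the cluster that was the case for Mmp13 alone. Its region (chr9:7272357-7272620, 264 bp) spanned the start and both capitalised matches shown above. Its level was 0.87 log2 CPM, or 2.79 per kb (the level minus the log2 of the width in kb). That was a weak start region, with a level above only 2.55% of the start regions of all protein-coding genes. Levels per kb are not free of width: their median was 3.25 over all regions and 3.75 over those at least 500 bp wide. The other 3 regions assigned to Mmp13 lay upstream at 10502, 19062 and 29605 bp, with levels of 0.54, 1.36 and 0.81 log2 CPM, and none lay in its body. The region at 10502 bp held an AP-1 match, and those at 19062 and 29605 bp a RUNX match each. The match in the strongest of them is shown with its flanks, in capitals.
Mmp13 upstream RUNX match (chr9:7253435-7253480, plus strand): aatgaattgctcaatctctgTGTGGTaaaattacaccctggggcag

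Over the 427072 bp from the start of Mmp13 to the end of Mmp7, 9 regions were found, or 2.11 per 100 kb. From the end of the Mmp13 start region, 281044 bp without any region followed (chr9:7272621-7553664), a stretch wider than 98.8% of the gaps between neighbouring regions, whose median was 8161 bp. Mmp12 (macrophage elastase), Mmp1b (grouped here with the collagenases) and the stromelysins Mmp3 and Mmp10 lay wholly inside it. Mmp7 (matrilysin), at the far end, had no region either. Mmp8 (neutrophil collagenase) had 2 weak regions upstream, of 1.14 and 0.75 log2 CPM, which also fell in the window of Mmp27. The strongest region of the cluster (chr9:7594843-7595623) reached 3.70 log2 CPM, 4.06 per kb, and lay between Mmp27 and Mmp20 with neither AP-1 nor RUNX letters. It was followed by 2 weaker ones of 1.30 and 1.97 log2 CPM. Mmp20, the enamel protease, had 3 regions in its body, of 0.40, 0.60 and -0.41 log2 CPM, the last being the lowest level at any of the 45 genes. Of the 12 regions in the windows of the cluster, 11 lay below the median of all regions (2.12 log2 CPM).

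**Figure D1:**
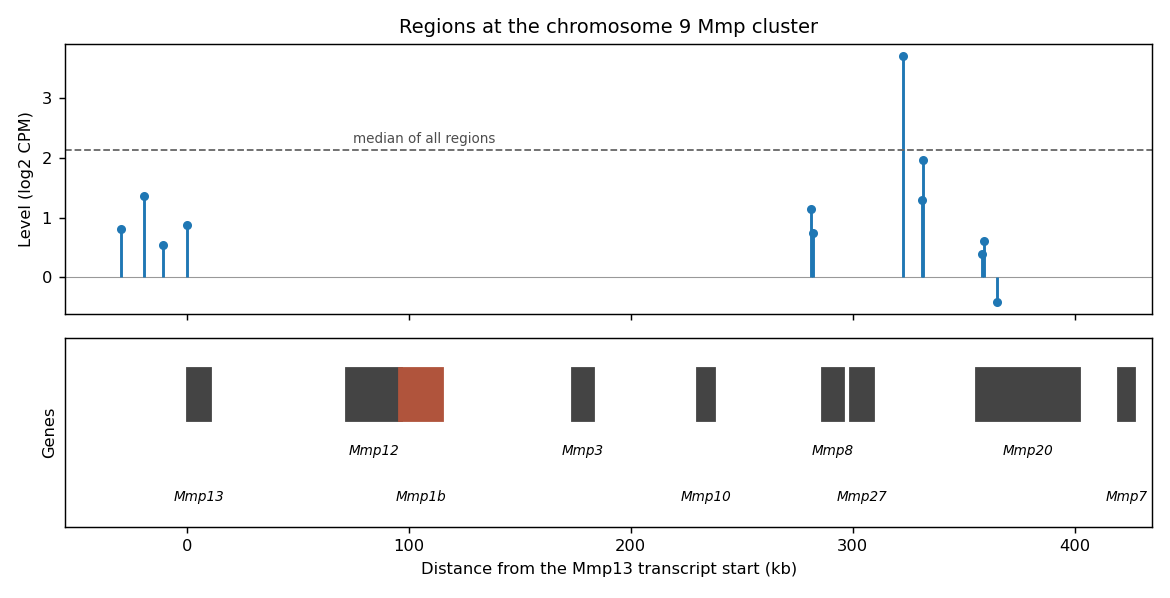
Levels of the 12 regions at the chromosome 9 Mmp cluster (upper panel, log2 CPM, 1 stem per region) against their distance from the Mmp13 start in kb, with the 9 genes below (dark, plus strand; red, minus strand) and the median of all regions dashed. The 281044 bp after the Mmp13 start region are empty, and 1 region, at 3.70 log2 CPM, stands above the median.

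Across all 45 genes, 29 had a region at a start, 64.4% (95% Wilson interval 49.8% to 76.8%), against 62.7% of all protein-coding genes. The 28 of 36 genes with one outside the chromosome 9 cluster made 77.8% (61.9% to 88.3%). Leaving out the cluster, where 1 of 9 genes had one, raised this share, while no cluster was left out of the 62.7%. There were 6 genes without any region in the window (Mmp1b, Mmp3, Mmp10, Mmp7, Mmp12 and Adamts20), 13.3% of the 45 against 16.5% of all protein-coding genes. The strongest region at a start had a median level of 4.07 log2 CPM at the 29 genes and of 5.05 over all protein-coding genes with one. Per kb the medians of these same regions were 4.17 and 4.77, and 6 of the 29 lay above the latter: Mmp11, Adamts1, Adamts2, Adamts4, Adamts5 and Timp2. At Mmp14 another start region, of lower level (chr14:54431252-54431975), had 5.18 per kb.

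**Figure D2:**
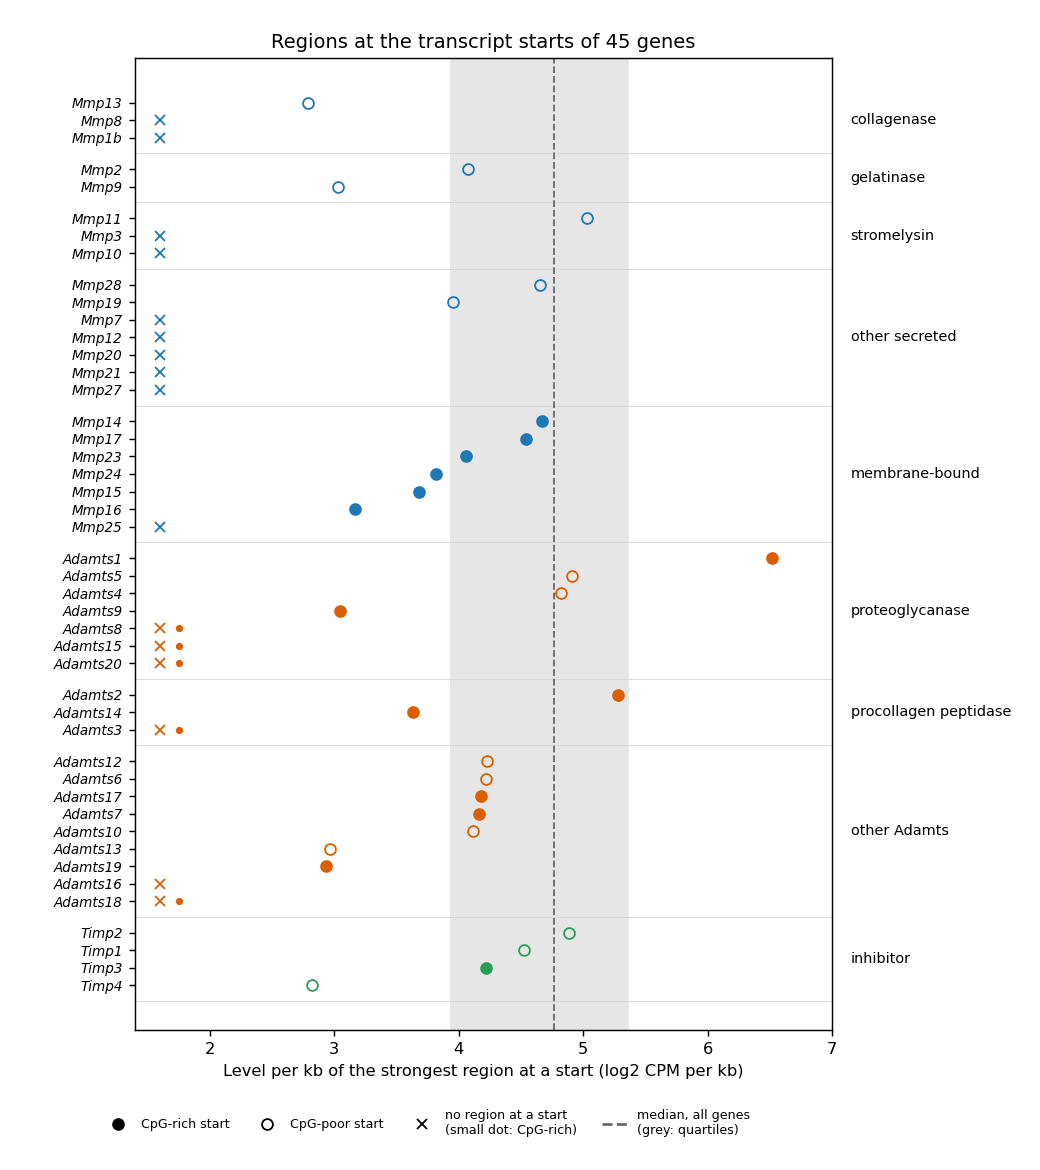
Level per kb (log2 CPM per kb) of the strongest region at a start of each of the 45 genes, grouped by role, with the median (dashed) and quartiles (grey) over all protein-coding genes with a start region. Crosses on the left are the 16 genes without a region at a start, and the 6 genes right of the dashed line are led by Adamts1 at 6.52.

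Starts differ in base composition, and CpG-rich starts, here those with at least 55% GC and an observed over expected CpG of at least 0.6 within 500 bp, are open in most cell types. Each gene was classed by its most upstream start, while a region at any of its starts was counted. Over all protein-coding genes, 90.9% of those with a CpG-rich start and 44.7% of those with a CpG-poor one had a region. Of the 45 genes, 19 had a CpG-rich start, of which 14 had a region (73.7%, interval 51.2% to 88.2%), and 26 a CpG-poor one, of which 15 had a region (57.7%, 38.9% to 74.5%). The 15 include Mmp9 and Mmp11, which had no region at the start that was classed. All 6 Mmp genes with a CpG-rich start had a region there, and all 6 encode enzymes anchored in the membrane (Mmp14, Mmp15, Mmp16, Mmp17, Mmp23 and Mmp24). Of the 16 Mmp genes with a CpG-poor start, 6 had a region (37.5%, 18.5% to 61.4%), Mmp9 and Mmp11 only at a start further inside. Of the 12 Adamts genes with a CpG-rich start, 7 had a region (58.3%, 32.0% to 80.7%), an interval that lies below the 90.9% of all such genes. The 5 without one were Adamts3, Adamts8, Adamts15, Adamts18 and Adamts20. Of the 7 CpG-poor Adamts starts, 6 had a region (85.7%, 48.7% to 97.4%), Adamts16 being the exception, and the intervals of both Adamts classes overlap.

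**Figure D3:**
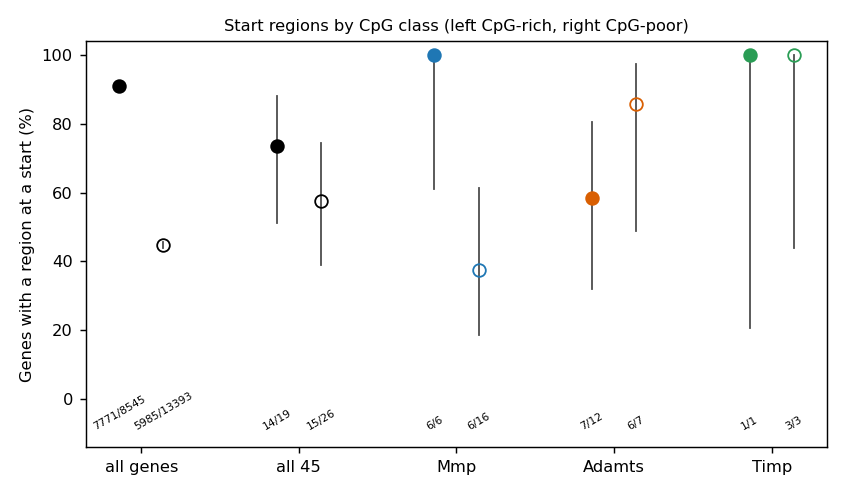
Share of genes with a region within 1000 bp of any of their starts (%), with 95% Wilson intervals as bars and the counts beneath. Genes whose most upstream start is CpG-rich are filled (left), and those where it is CpG-poor are open (right). The Adamts points stand in the opposite order to those of all genes, at 58.3% and 85.7% against 90.9% and 44.7%.

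The collagenases and gelatinases had no start region or one below the median of all genes. Beside Mmp13, neither Mmp8 nor Mmp1b had a region there. Mmp2 (gelatinase A) had 12 regions, 3 of them around its starts with levels of 2.61, 3.92 and 2.92 log2 CPM. A region 9154 bp upstream had 4.11 log2 CPM and 2 AP-1 matches. The highest levels were 4.54, 4.28 and 5.13 log2 CPM at 20193, 22233 and 23092 bp after the start, the last of them over coding sequence and nearer to the start of Lpcat2. Mmp9 (gelatinase B) had no region at its most upstream start. The region counted for it (chr2:164947561-164948181, 2.34 log2 CPM, 3.03 per kb) lay 7091 bp inside the gene at the start of a shorter transcript and held 2 AP-1 matches. The highest level in the Mmp9 window, 6.38 log2 CPM, was at the promoter of Zfp335, its neighbour.

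Among the stromelysins and the other secreted enzymes, Mmp11, Mmp19 and Mmp28 had a start region. That of Mmp11 (stromelysin 3) reached 4.73 log2 CPM and 5.03 per kb and lay 4103 bp inside the gene at the start of a shorter transcript. Mmp28 (epilysin) had 4.83 log2 CPM at its start. Its intron regions reached 5.43 log2 CPM at 14566 bp inside, with 2 RUNX and no AP-1 matches, and 4.88 at 4973 bp inside, with 2 of each. Mmp19 had 3.77 log2 CPM at the start and a higher region upstream (chr10:128778930-128779913, 4.74 log2 CPM, 11489 bp before the start), above 97.0% of all intergenic regions. The highest regions in the windows of Mmp19 and Mmp28 were the promoters of Pym1 (5.34 log2 CPM) and Taf15 (6.14). The only region in the Mmp21 window, of 5.20 log2 CPM, was the promoter of Uros.

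Mmp14, the membrane-bound enzyme that activates the Mmp2 and Mmp13 precursors, had 12 regions and 18.8 per 100 kb, a density above 97.7% of all protein-coding genes. There were 3 at its starts, with levels of 4.71 (chr14:54431252-54431975), 3.02 (chr14:54432207-54432557) and 4.89 log2 CPM (chr14:54432795-54433960). One of 2.53 log2 CPM lay in the intron behind them. The highest of all (chr14:54443064-54444297) reached 5.75 log2 CPM and 5.45 per kb, lay 12068 bp after the start over coding and untranslated sequence near the end of the gene, and was above 99.5% of all exon regions. It held 1 AP-1 and 1 RUNX match, and neither match with its flanks overlaps an annotated exon. They are shown in capitals with their flanks, since this was the highest region of the gene. The 7 regions further upstream, of 0.45 to 4.27 log2 CPM, lay nearer to the starts of Mrpl52, Slc7a7 and Oxa1l than to that of Mmp14.
Mmp14 AP-1 match (chr14:54443288-54443334, plus strand): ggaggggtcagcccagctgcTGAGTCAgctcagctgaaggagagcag
Mmp14 RUNX match (chr14:54443729-54443774, plus strand): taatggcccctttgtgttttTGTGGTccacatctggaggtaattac

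The other membrane-bound enzymes had start regions of 4.68 (Mmp17), 4.52 (Mmp23), 4.05 (Mmp15), 3.27 (Mmp16) and 2.86 log2 CPM (Mmp24). Mmp25 had none at its start. The highest levels in the windows of Mmp15, Mmp23, Mmp24 and Mmp25 were at promoters of other genes, Zfp319 (6.40 log2 CPM), Mib2 (5.33), Edem2 (4.22) and Tnfrsf12a (5.98). Per kb a narrower region at Tnfrsf12a (5.72 per kb) and one near BC029722 at the end of Mmp24 (4.69 per kb) were higher still.

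Of the 7 Adamts genes grouped as proteoglycanases, Adamts1, Adamts4, Adamts5 and Adamts9 had a start region. Adamts1 stood first among all 45 genes. Of its 2 start regions, the one further inside (chr16:85800650-85801733) had 6.63 log2 CPM and 6.52 per kb, above 98.6% of the start regions of all protein-coding genes per kb. The other (chr16:85801958-85803425), over the most upstream start, had 6.36 log2 CPM. A narrow region just upstream (chr16:85804133-85804657) had 5.23 log2 CPM and 6.15 per kb. Adamts5, the main aggrecanase of mouse cartilage, had a 2114-bp start region of 5.99 log2 CPM, 4.91 per kb (chr16:85899817-85901930). Adamts1 and Adamts5 are neighbours on chromosome 16, read in the same direction with 53059 bp between them, in which 6 regions lay. Chromosome 16 had the highest density of regions of any chromosome in this list, 59.6 per Mb, and the lowest median level, 1.77 log2 CPM. The part of the chromosome in the Adamts1 and Adamts5 values was not tested. The matches in the highest region of all 45 genes read as follows.
Adamts1 AP-1 match in its strongest region (chr16:85800784-85800830, minus strand): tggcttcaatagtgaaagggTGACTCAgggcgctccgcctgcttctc
Adamts1 RUNX match in the same region (chr16:85800685-85800730, minus strand): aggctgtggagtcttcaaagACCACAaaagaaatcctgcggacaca

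Adamts4, the other classical aggrecanase, had 14 regions and 23.2 per 100 kb, a density above 99.6% of all protein-coding genes, and 3 of them lay at starts of other genes, the highest at Tomm40l (6.13 log2 CPM). Of its own 2 start regions the stronger had 4.57 log2 CPM and 4.82 per kb. Adamts9 had 2.57 log2 CPM at its start and 2.51 (3.38 per kb) just inside. Adamts8 and Adamts15 are also neighbours, on chromosome 9, and are read away from each other from starts 20110 bp apart. Both starts are CpG-rich and neither had a region. The 2 regions between them had 0.61 and 1.03 log2 CPM, one in an Adamts15 intron had 0.78, and one beyond the end of Adamts15 had 3.10. Adamts20 had no region over its 195 kb nor upstream of it. The pair Adamts1 and Adamts5 was thus open at both starts and the pair Adamts8 and Adamts15 at neither.

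Of the procollagen peptidases, which remove the amino-terminal propeptide of fibrillar procollagens, Adamts2 had 32 regions, the most of any of the 45 genes. Its start region (chr11:50601576-50603475) had 6.20 log2 CPM, 5.28 per kb. Another 5.50 log2 CPM lay 36371 bp upstream (chr11:50565020-50566406), above 99.2% of all intergenic regions, and 3 intron regions of 4.53, 4.55 and 4.49 log2 CPM lay 67846, 72622 and 80153 bp inside. Adamts3, of nearly the same length (206 against 205 kb), had 1 region of 0.39 log2 CPM and none at its start. Adamts14 had a start region of 3.10 log2 CPM and stronger ones of 4.41, 5.12 per kb, at 4743 bp upstream and of 4.94 at 12399 bp upstream, the latter nearer to the start of Prf1.

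Among the other Adamts genes, 7 of 9 had a start region, from 2.34 log2 CPM at Adamts13, the protease of von Willebrand factor, to 5.40 at Adamts12. The Adamts12 start region was the widest at any of the 45 genes, 2257 bp (chr15:11064003-11066259). Adamts7, which like Adamts12 cuts the cartilage protein COMP, had 4.70 log2 CPM. Adamts10 and Adamts17, both linked to Weill-Marchesani syndrome, had 4.76 and 4.07 log2 CPM, and Adamts6 and Adamts19 had 3.44 and 2.71. Adamts16 and Adamts18 had none, and their highest regions had 3.78 and 1.47 log2 CPM (per kb the highest at Adamts18 was another, of 2.43). Adamts10 had its highest region (chr17:33503478-33504527, 5.29 log2 CPM) 20202 bp upstream, above 98.8% of all intergenic regions, and Adamts17 had 4.25 log2 CPM at 26721 bp upstream. In the windows of Adamts7 and Adamts13 the highest regions were the promoters of Morf4l1 (6.20 log2 CPM) and Surf4 (5.63), and per kb in that of Adamts13 the promoter of Cacfd1 (5.36 per kb).

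Many of these genes are long. Of the 45 genes, 11 span 100 kb or more, 10 Adamts genes and Mmp16. Their median was 4 regions, 1.81 per 100 kb of window, against 10 regions and 4.15 per 100 kb at the 2492 protein-coding genes of that length (quartiles 1.62 and 7.65). The 11 ranged from 0 regions at Adamts20 and 1 each at Adamts3 and Adamts19 to 19 at Adamts12 and 32 at Adamts2. Over all 45 genes the median density was 7.37 per 100 kb, against 5.81 over all protein-coding genes, with 25 of the 45 above the latter.

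**Figure D4:**
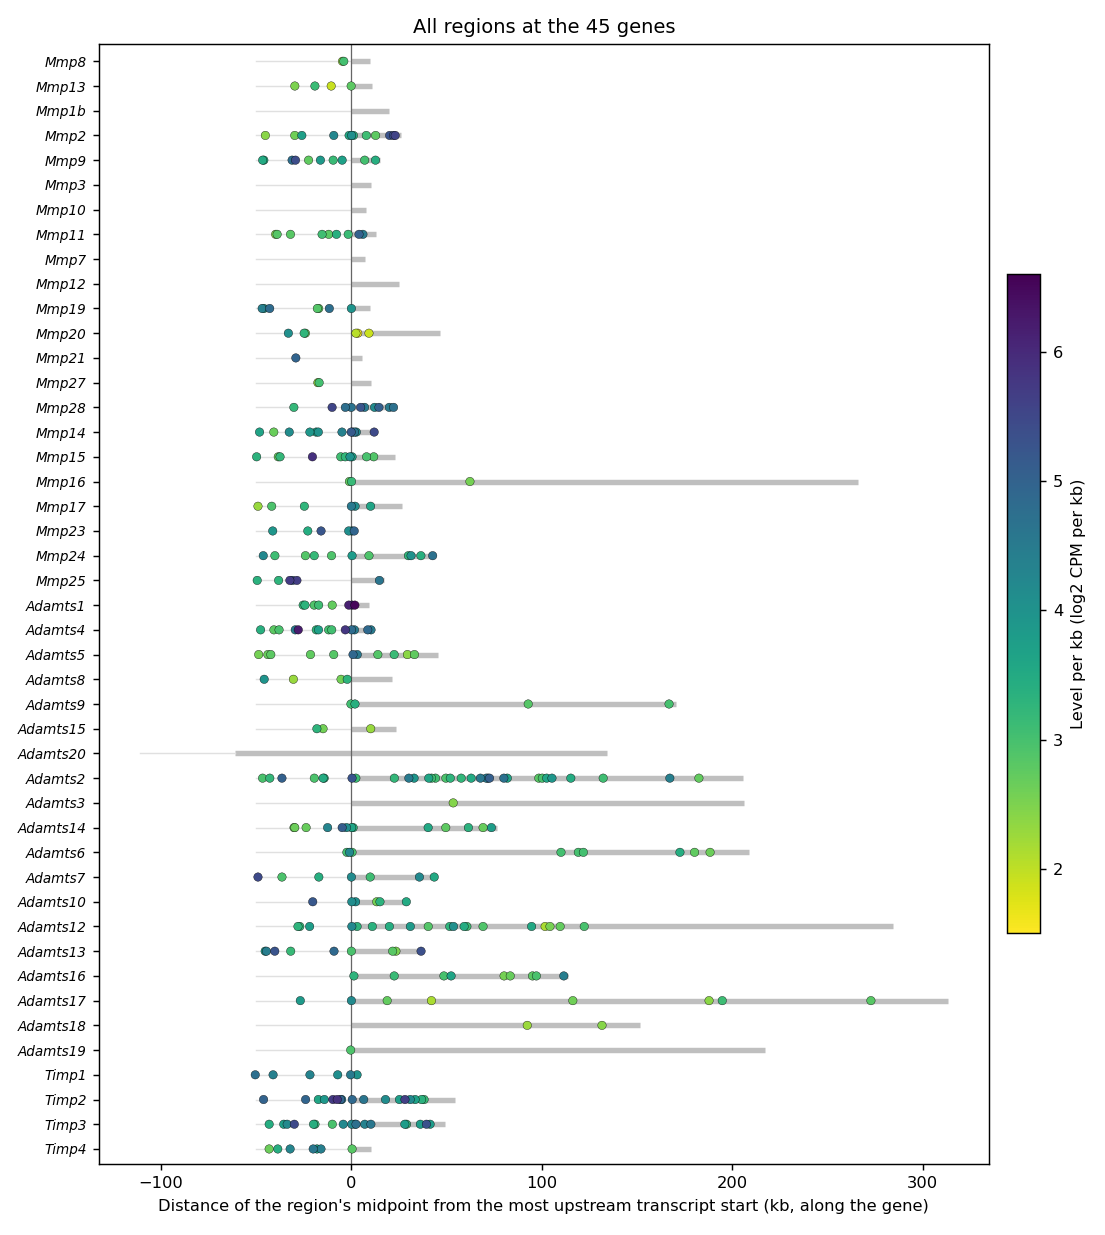
All regions at the 45 genes by distance of their midpoint from the most upstream start of a protein-coding transcript (kb along the gene, negative upstream), with gene bodies as grey bars, the 50 kb upstream as thin lines and the level per kb in colour. Adamts2 carries 32 regions, 26 of them in its body, while Adamts3, Adamts18, Adamts19 and Adamts20, also long, carry 0 to 2.

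All 4 Timp genes had a region at a start. Timp2, which takes part in the activation of the Mmp2 precursor by Mmp14, had 5.13 log2 CPM there, Timp1 4.70, Timp3 3.78 and Timp4 1.73. For each of the 4 genes the strongest region in the window lay elsewhere, for Timp1 in an Araf intron (5.12 log2 CPM, 50381 bp upstream). Timp2 had 17 regions, among them one of 5.98 log2 CPM and 5.87 per kb (chr11:118362529-118363606) 7327 bp upstream, above 99.7% of all intergenic regions, one of 4.63 log2 CPM 9607 bp upstream and one of 5.70 log2 CPM in an intron 28225 bp inside. The last lay nearer to the start of Cep295nl, and 8 of the 17 were nearest to a start of Timp2. Timp3, the inhibitor that binds to the matrix and also blocks Adamts4 and Adamts5, had 18 regions, all nearest to its own start and 18.2 per 100 kb. The strongest had 5.52 log2 CPM at 29873 bp upstream (chr10:86269979-86271019) and 5.42 log2 CPM at 39493 bp inside (chr10:86339334-86340396). Timp4 had 7 regions, with up to 4.16 log2 CPM at 19962 bp upstream. Matches in strong regions of Timp2 and Timp3 and in the start region of Timp1 are given in capitals with their flanks.
Timp2 RUNX match in the region at 7327 bp (chr11:118363088-118363133, minus strand): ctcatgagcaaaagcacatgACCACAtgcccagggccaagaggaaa
Timp2 AP-1 match in the region at 9607 bp (chr11:118365309-118365355, minus strand): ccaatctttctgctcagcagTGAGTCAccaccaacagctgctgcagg
Timp3 RUNX match in the region at 29873 bp upstream (chr10:86270617-86270662, plus strand): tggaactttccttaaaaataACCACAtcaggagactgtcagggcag
Timp3 AP-1 match in the region at 39493 bp inside (chr10:86339657-86339703, plus strand): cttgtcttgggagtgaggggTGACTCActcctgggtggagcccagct
Timp1 AP-1 match at the start region (chrX:20869421-20869467, plus strand): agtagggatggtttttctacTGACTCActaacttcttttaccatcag

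Timp1, Timp3 and Timp4 lie inside the synapsin genes Syn1, Syn3 and Syn2 on the opposite strand. Upstream of Timp3 and Timp4 some of the regions are intron regions of Syn3 and Syn2, while the intron regions upstream of Timp1 lie in Araf. Among the 48 regions at the Timp genes the median level per kb was 4.18, against 3.54 for the 115 at Mmp genes, 3.24 for the 157 at Adamts genes and 3.25 for all regions. For intron regions alone it was 4.15 at the Timp genes (27 regions) and 3.16 over all. The Timp regions were also wider, with a median of 570 bp against 460 bp over all regions (intron regions 553 against 405 bp). The part of width in these levels was not tested. Timp1 lies on the X chromosome, which had 9.08 regions per Mb, and its part in the Timp1 values was not tested.

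The 10 highest regions at the 45 genes had 5.98 to 6.63 log2 CPM. Of these 4 were starts of Adamts1, Adamts2 and Adamts5, and the other 6 were promoters of the neighbours Zfp319, Zfp335, Morf4l1, Taf15, Tomm40l and Tnfrsf12a. Of all 320 regions, 215 had a protein-coding start of one of the 45 genes as their nearest and 35 lay at the start of another protein-coding gene. Regions in introns made up 42.5%, promoters of any gene 29.1%, intergenic regions 20% and exons 8.44%, against 37.3%, 22.7%, 33.3% and 6.73% of all regions. Their median level was 2.51 log2 CPM, 3.45 per kb, against 2.12 and 3.25 over all regions, and their median width 521 bp against 460 bp. Promoter regions at these genes had 4.06 per kb against 4.10 for all promoter regions, intron regions 3.32 against 3.16 and intergenic regions 3.28 against 3.14.

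An AP-1 match was present in 62 of the 320 regions, 19.4% (15.4% to 24.1%), against 22.1% of all regions. For regions of the same class and width 22.1% would hold one. RUNX letters were present in 139 regions, 43.4% (38.1% to 48.9%), against 42.7% of all regions. The core of the hypoxia response element (HRE), the letters ACGTG or GCGTG to which HIF binds, was present in 147 regions, 45.9% (40.6% to 51.4%), against 46.2% of all regions and 49.5% for the same class and width. These intervals, over the whole width of the regions, include the share of all regions. In the central 200 bp AP-1 letters were present in 8.13% (5.60% to 11.6%), an interval below the 12.1% of all regions, while those of the HRE core and RUNX still included it. The central shares were not matched for class. Over the whole width, 16.5% of all promoter regions and 23.7% of all other regions held AP-1 letters. The Timp regions had AP-1 in 27.1% (16.6% to 41.0%) and the Adamts regions in 17.2% (12.1% to 23.9%), intervals that overlap.

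**Figure D5:**
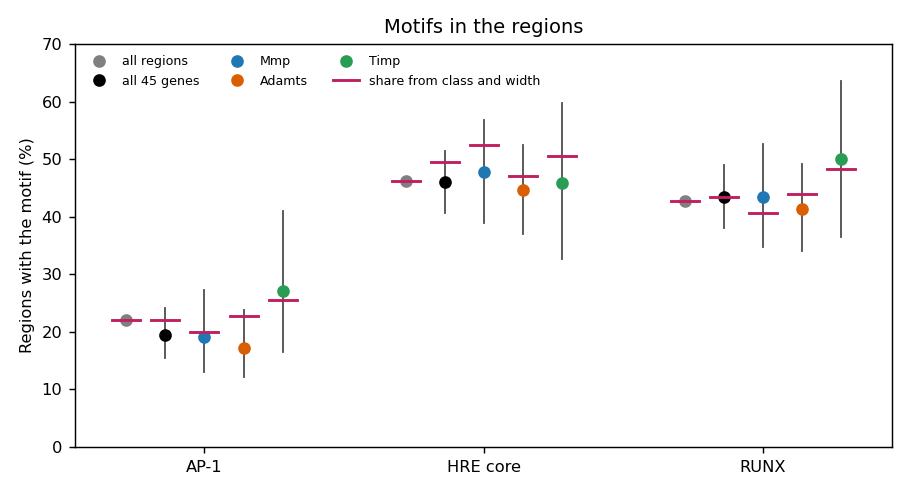
Share of regions (%) that hold AP-1, HRE core or RUNX letters on either strand, with 95% Wilson intervals as bars, for all regions, all regions at the 45 genes and those at each family, and as magenta dashes the share expected from regions of the same class and width. Each bar of the 45 genes reaches the dash beside it.

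In the start regions alone, AP-1 letters were found at 7 of the 29 genes, 24.1% (12.2% to 42.1%), namely Mmp9, Mmp13, Mmp19, Mmp28, Adamts1, Adamts5 and Timp1, against 13.6% of the start regions of all protein-coding genes. RUNX letters were found at 14 of 29, 48.3% (31.4% to 65.6%), against 40.2%. An HRE core was found at 26 of 29, 89.7% (73.6% to 96.4%), against 88.6%. The strongest start regions of Mmp13, Mmp14 and Mmp19 were the 3 without an HRE core, although the other start regions of Mmp14 held 3 and 1. The largest number of HRE cores outside promoters, 9, was in an intron region of Adamts12 (chr15:11174148-11174915, 2.34 log2 CPM), as in 0.0586% of regions outside promoters. That region is a tandem repeat in which the unit TGTGCC occurs 50 times and takes up 39.1% of its bases.

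Genes that act with these enzymes were examined in the same way, to be read against the 62.7% of all protein-coding genes with a region at a start. Of 16 activators, inhibitors and receptors, 14 had a region at a start, among them Lrp1 (6.97 log2 CPM), a receptor that clears proteases, and Reck (5.65), a membrane-anchored Mmp inhibitor, while Spock1 and A2m had none. Of 9 ADAM sheddases, 8 had one, with Adam9 (6.55) and Adam17 (6.21) the highest and Adam28 without. Of 6 ADAMTS-like genes, 5 had one, Adamtsl1 being the exception. Of 14 substrates, 10 had one, among them Vcan (6.28), Comp (5.14) and Col1a1 (4.93), while Acan, Bcan, Ncan and Vwf had none.

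Cell type markers were counted at their starts, with 2 to 10 genes a list. Of 10 osteoblast and osteocyte markers, 6 had a region (60%, near the 62.7% of all protein-coding genes), among them Runx2, Sp7 and Dmp1, while Phex, Mepe, Sost and Pdpn had none. Of 6 mesenchymal markers, 5 had one. Of the markers of other cell types, 2 of 5 blood, 1 of 3 endothelial, 0 of 3 epithelial, 0 of 2 muscle and 2 of 2 neuron markers had one, the highest being Spi1 (3.38 log2 CPM) among the blood and Rbfox3 (2.41) among the neuron markers. Their part in the values above was not tested.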

How the data were processed

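ATAC-seq reads of 11 MPC2 cultures had been processed by the authors before deposit: trimming with Trim Galore, alignment to mm10 with Bowtie2, removal of duplicates with Picard 2.17.8, peak calling with MACS2 2.2.7.1, merging of peaks, removal of blacklisted regions, counting of cuts, a filter on low counts and TMM normalisation with edgeR 3.24.3. The deposited list gives 1 log2 value per merged region, read as the average log2 CPM over all samples because 460 values are below 0 and 2 to the power of the values sums to 1012761, a reading inferred from the values. Depth per sample is unknown, merging sets region widths, and no test was run. No column of samples was left out.

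Genes, transcripts and sequence came from GENCODE vM21 and GRCm38, the same assembly as mm10, and 0 regions ran past a chromosome end. Coordinates are 1-based. Classes were promoter (within 1000 bp of any annotated start), then exon, intron and intergenic. A level per kb is the level minus the log2 of the width in kb. Distances run from the most upstream start of a protein-coding transcript to a region's midpoint. Motifs were searched on both strands, and overlapping matches of 1 motif counted once. Expected shares came from all regions of the same class (promoter or not) in 20 bins of width. Intervals are 95% Wilson intervals and cover counting error only. Those of the motif shares treat regions as independent, although many regions belong to the same gene.

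Named were the start region and the regions of highest level and highest level per kb of each gene, all regions of the chromosome 9 cluster and of Mmp14, and the 10 highest. The genes, lists and rules were chosen with earlier results of these data known. The list of pathway genes and markers was given as counts. The counting code was tested on simulated data. Python 3.11.15, numpy 2.4.6, scipy 1.17.1, pysam 0.24.0 and matplotlib 3.10.9 were used.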

Additional observations from a re-analysis of the deposited data

How the results depend on the processing

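No paired analysis was possible because the deposited values are averages over all cultures, and for the same reason no culture could be left out and no comparison between groups was run. Of 51 alternatives, 37 stayed within 1.5 times the count or within the 95% interval. The number of regions was 207 with 10 kb upstream and 169 with regions at least 500 bp wide (320 as reported). With that width the median level per kb was 4.01 (3.75 over all regions of that width) and the shares of AP-1, HRE core and RUNX were 25.4%, 63.9% and 52.7%, against 28.1%, 66.3% and 55.3% of all regions of that width. With other letters they were 28.8% (TGANTCA), 30.3% (ACGTG only) and 19.7% (TGTGGTT), against 28.1%, 27.1% and 18.1% of all regions. In the central 200 bp they were 8.13%, 25.3% and 24.7%, against 12.1%, 24.2% and 22.2%. Genes with a region at a start numbered 26 (of 42, without chromosomes 16 and X) to 32 under the 6 alternatives. Mmp13 and Timp4 lost theirs with wider regions or a level of at least 2 log2 CPM, Mmp9 and Mmp11 when only the most upstream start counted, and Adamts8, Adamts16 and Mmp20 gained one within 2500 bp. Alternatives for the bases before the start were chosen after seeing the data: AP-1 letters were found at 6 or 7 genes, and AP-1 with RUNX at 0 genes in 100 bases and 2 in 250 bases.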
